A study of Mus musculus with 6 samples.

Results

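Mitochondrial ribosomal protein genes were the 76 rows of the deposited expression table, of 38926 genes in all, whose symbol begins with Mrpl or Mrps and a digit, leaving out rows marked as pseudogenes. By symbol, 47 belonged to the large subunit (Mrpl) and 29 to the small subunit (Mrps). They were measured by RNA sequencing in LSK cells, marrow cells that lack lineage markers, carry Sca-1 and Kit, and include the blood stem cells and multipotent progenitors. The C57BL/6 mice, aged 8 to 12 weeks, received haloperidol, an antipsychotic that blocks dopamine D2 receptors, or its vehicle DMSO by injection on 3 consecutive days, with 3 libraries per group. Cells of both groups came from crushed, collagenase-treated femur and tibia, remained in contact with haloperidol or DMSO during the sort, and went directly into lysis buffer. The labels give no batch, and state neither a dose nor whether the 3 libraries of a group came from separate mice or from pools, so the p-values measure only the spread between these libraries, which may be technical.

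The mitochondrial ribosome, or mitoribosome, makes the few proteins that mitochondrial DNA still encodes, all of them subunits of the respiratory chain and ATP synthase. Its 2 ribosomal RNAs are transcribed in the mitochondrion, whereas all of its proteins are encoded in the nucleus, made in the cytosol and imported. The small subunit reads the messenger RNA, and the large subunit joins amino acids and releases the new chain through an exit tunnel. Many of the proteins descend from bacterial ribosomal proteins and others were added in mitochondria. Blood stem cells are known to keep translation and respiration low and to raise both when they divide and differentiate. In bulk samples, fewer cells of a type and less RNA per cell cannot be told apart.

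Depth lay between 8523513 and 8969028 reads per library. Values are FPKM, fragment counts scaled to gene length and sequencing depth, and 75 of the 76 members reached the mean of 1 FPKM over the 6 libraries that was required for testing. The tested members held between 118 and 1387 reads per library, and their counting error was a median of 4.45% of the mean, against a median SD between libraries of 5.42% in DMSO and 5.74% in haloperidol. Kit and Ly6a, the genes of the 2 proteins that LSK cells carry by definition, were expressed. Neither passed limma's test (log2 fold change -0.12 for Kit and 0.02 for Ly6a). Cd34 and Flt3, which are not part of that definition, were also expressed. Cd34 was lower with haloperidol (log2 fold change -0.22, limma adjusted p = 0.0153) and Flt3 higher (0.16, limma adjusted p = 0.0484). These 4 genes summed to 948 to 997 FPKM under DMSO and, without overlap, to 875 to 918 FPKM after haloperidol. Cd34 held most of that sum, with means of 647.7 FPKM under DMSO and 556.6 FPKM after haloperidol. The means were 87.8 and 81.0 FPKM for Kit, 136.2 and 138.3 FPKM for Ly6a, and 103.5 and 115.7 FPKM for Flt3. The 7 lineage markers summed to 16.4 to 23.0 FPKM and 17.9 to 18.3 FPKM, with Cd8a at 0 in every library. Of 6 lists of other cell types, the summed levels of 2 separated between the groups, each carried mostly by 1 gene. The 4 B cell markers summed to 244 to 281 FPKM in DMSO and 91.5 to 115.6 FPKM in haloperidol, with Ighm alone at 262 ± 18.7 and 101.7 ± 12.3 FPKM (SD, n = 3). Of the 4 monocyte and macrophage markers 3 were in the table and summed to 20.9 to 23.6 FPKM and 47.3 to 54.5 FPKM. Of these, Cd68 was at 16.2 ± 0.987 and 44.9 ± 3.90 FPKM, Csf1r at 5.09 ± 0.995 and 6.51 ± 1.39 FPKM, and C1qa at 1.11 ± 0.914 and 0.617 ± 0.157 FPKM (SD, n = 3). The sums overlapped for erythroid (2150 to 2865 and 2613 to 3431 FPKM), neutrophil (156 to 260.3 and 163 to 283 FPKM), endothelial (15.7 to 17.0 and 14.4 to 16.1 FPKM) and T and NK cell markers (0.700 to 0.957 and 0.825 to 1.06 FPKM). The part of these markers in the results for mitochondrial ribosomal protein genes was not tested.

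Most members stayed close to their DMSO level after haloperidol, and the 8 that passed the test were divided evenly between the directions. Mrpl52, Mrpl2, Mrpl27 and Mrpl20, all of the large subunit, rose. Mrpl39 and Mrpl44 of the large subunit and Mrps6 and Mrps25 of the small subunit fell. The means of these 8 changed by between 14.9% and 30.0% of the DMSO level upward, and by between -17.4% and -28.1% downward.

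Of the 75 members tested, 8 (10.7%) passed limma's test at an adjusted p of 0.05, beside 24.5% of the 11436 genes tested in all. Higher with haloperidol were 4 members (5.33%) beside 11.5% of all genes, and lower were 4 (5.33%) beside 13% of all genes. In 15 members (20%) every haloperidol library lay above every DMSO library, beside 21% of all genes. In 10 members (13.3%) every haloperidol library lay below, beside 22.1% of all genes. The shares of members past the test were therefore below the background in both directions, while the share that separated upward was near it. Other fits left the members' share between 5.26% and 14.7% and that of all genes between 9.47% and 29.0%, and in each of these 16 fits the members' share was the lower.

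On the log2(FPKM + 1) scale, the members' fold changes had a median of 0.02, with 43 above 0 and 32 below. Their quartiles were -0.06 and 0.12, whereas over all genes tested the median was 0.00 and the quartiles were -0.16 and 0.16. The median size of a change, without its sign, was 0.09 for members and 0.16 for all genes. The 95% confidence interval of the change lay within 1.25-fold either way (0.32 on the log2 scale) for 55 of 75 members and within 1.5-fold (0.58) for 74. Mrpl39, whose interval reached -0.62, was the exception.

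**Figure D1:**
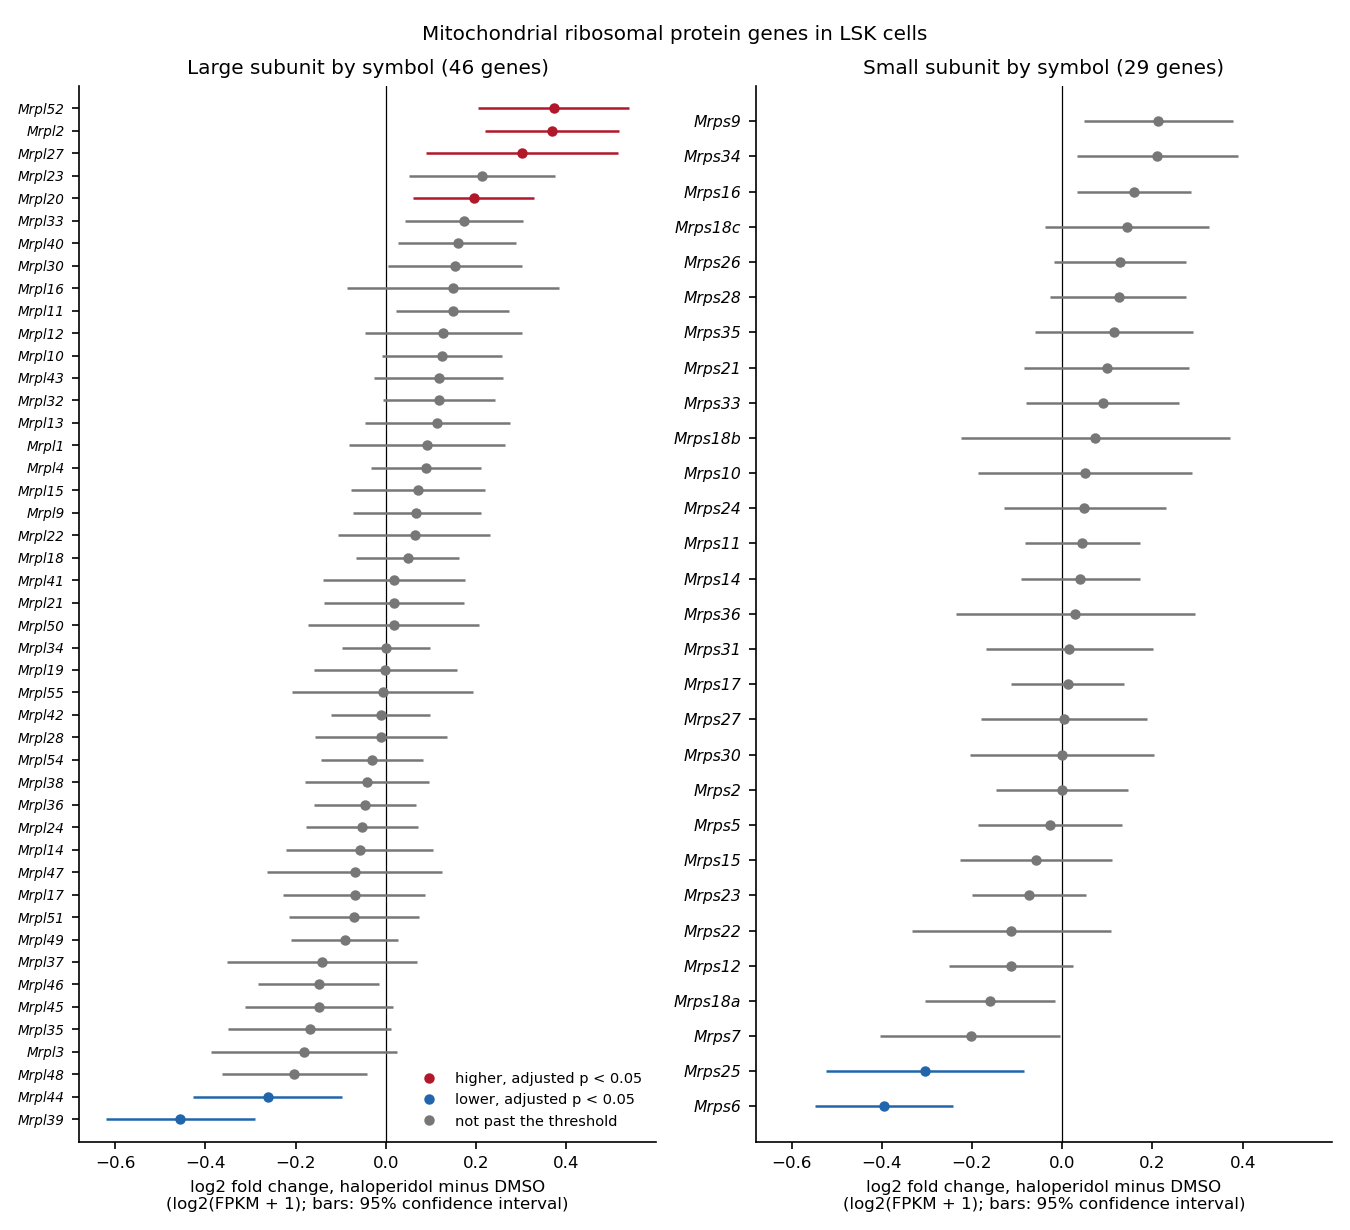
Log2 fold change of each tested member on the log2(FPKM + 1) scale, haloperidol minus DMSO, with its 95% confidence interval from limma, for 46 large-subunit genes (left) and 29 small-subunit genes (right). Red points passed the test upward (4 genes), blue points downward (4 genes), and the changes run from -0.46 for Mrpl39 to 0.37 for Mrpl52.

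Mrpl2 (GRCm38/mm10, chromosome 17, 46646229 to 46650139, plus strand) encodes uL2m, a core protein next to the peptidyl transferase centre where peptide bonds form. It was at 52.0, 58.9 and 59.4 FPKM in the DMSO libraries and 70.4, 73.1 and 77.05 FPKM in the haloperidol libraries. All 3 treated libraries lay above all 3 controls. The mean went from 56.8 ± 4.13 to 73.5 ± 3.33 FPKM (SD, n = 3), a log2 fold change of 0.37 (SE 0.07, limma adjusted p = 0.00499).

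Mrpl52 (chromosome 14, 54426909 to 54429756, plus strand) encodes mL52, a large-subunit protein that bacteria lack. Its levels were 109.7, 121 and 116.8 FPKM in DMSO and 150.4, 136 and 165 FPKM in haloperidol, so the groups did not overlap, although the treated libraries were the more scattered. The mean went from 115.8 ± 5.71 to 150.6 ± 14.4 FPKM (SD, n = 3), with a log2 fold change of 0.37 (SE 0.07, limma adjusted p = 0.00813).

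Mrpl39 (chromosome 16, 84717576 to 84735742, minus strand) encodes mL39, a mitochondria-specific protein that resembles threonyl-tRNA synthetase. It was at 25.8, 26.5 and 29.3 FPKM in DMSO and 18.5, 19.1 and 21.1 FPKM in haloperidol, with every treated library below every control. The mean went from 27.2 ± 1.86 to 19.6 ± 1.36 FPKM (SD, n = 3), a log2 fold change of -0.46 (SE 0.07, limma adjusted p = 0.00316) and the largest change of any member tested.

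Mrps6 (chromosome 16, 92058270 to 92112227, plus strand) encodes bS6m, which sits on the platform of the small subunit. Its levels were 44.4, 37.8 and 41.6 FPKM in DMSO and 29.9, 31.9 and 31.4 FPKM in haloperidol. The treated libraries were close together and below all controls. The mean went from 41.3 ± 3.30 to 31.1 ± 1.06 FPKM (SD, n = 3), with a log2 fold change of -0.39 (SE 0.07, limma adjusted p = 0.00429).

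These 4 genes passed the test in all 16 other fits, including those that left out 1 library, and their promoters are shown for that reason. Each runs from 250 bases before to 50 after the RefSeq gene start and is printed 5′ to 3′ on the gene's own strand, taken from RefSeq on GRCm38.p6. Capitals mark exact matches, on either strand, to an E-box (CACGTG, bound by MYC and other helix-loop-helix factors) in Mrpl2 and to the ETS motif of GABPA (CCGGAAG) at 2 places in Mrpl52. In Mrpl39 they mark an NRF1 motif (GCGCANGCG) that matches on both strands at neighbouring, overlapping positions. Mrps6 matched none of the motifs searched, which says only that these letters are not in this window. The windows lie at chr17:46645979-46646278 (plus strand), chr14:54426659-54426958 (plus strand), chr16:84735195-84735494 (minus strand, from a RefSeq start 498 bases from the outermost GENCODE start) and chr16:92058086-92058385 (plus strand).
Mrpl2: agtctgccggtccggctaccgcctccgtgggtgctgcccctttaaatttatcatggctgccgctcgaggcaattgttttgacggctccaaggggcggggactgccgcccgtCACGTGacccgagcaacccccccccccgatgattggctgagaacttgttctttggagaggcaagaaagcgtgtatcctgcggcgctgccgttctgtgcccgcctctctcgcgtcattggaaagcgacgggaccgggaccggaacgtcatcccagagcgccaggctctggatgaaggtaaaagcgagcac
Mrpl52: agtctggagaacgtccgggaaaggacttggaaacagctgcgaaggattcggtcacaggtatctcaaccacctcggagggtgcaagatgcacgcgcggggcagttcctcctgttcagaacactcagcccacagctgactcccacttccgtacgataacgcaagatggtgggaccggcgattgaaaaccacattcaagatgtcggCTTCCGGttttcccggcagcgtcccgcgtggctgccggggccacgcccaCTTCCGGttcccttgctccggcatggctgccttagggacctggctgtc
Mrpl39: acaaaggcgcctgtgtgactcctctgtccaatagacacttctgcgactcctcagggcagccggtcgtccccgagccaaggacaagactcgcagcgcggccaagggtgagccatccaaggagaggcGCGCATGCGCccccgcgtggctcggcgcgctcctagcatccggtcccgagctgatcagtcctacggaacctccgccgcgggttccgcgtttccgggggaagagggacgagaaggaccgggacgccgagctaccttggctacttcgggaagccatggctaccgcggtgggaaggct
Mrps6: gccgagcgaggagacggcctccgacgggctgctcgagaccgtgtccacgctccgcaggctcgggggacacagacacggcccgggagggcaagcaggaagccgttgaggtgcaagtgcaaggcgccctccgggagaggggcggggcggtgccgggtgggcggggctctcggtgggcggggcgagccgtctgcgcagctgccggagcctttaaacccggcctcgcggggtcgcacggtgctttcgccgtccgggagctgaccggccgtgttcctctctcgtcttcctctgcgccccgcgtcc

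The other 4 members past the test lay nearer to the threshold. Mrpl27 (chromosome 11, 94653767 to 94660089, plus strand) encodes bL27m, a neighbour of the peptidyl transferase centre. It was at 44.7, 46.6 and 37.6 FPKM in DMSO and 49.1, 51.6 and 58.7 FPKM in haloperidol, without overlap, and its log2 fold change was 0.30 (SE 0.09, limma adjusted p = 0.0466). Mrpl20 (chromosome 4, 155802878 to 155809975, plus strand) encodes bL20m, whose bacterial counterpart binds the ribosomal RNA early in assembly. It was at 35.9, 39.1 and 36.9 FPKM in DMSO and 41.1, 42.2 and 45.3 FPKM in haloperidol, and every treated library was above every control. The log2 fold change was 0.20 (SE 0.06, limma adjusted p = 0.0421).

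Mrpl44 (chromosome 1, 79776018 to 79781445, plus strand) encodes mL44, a protein with a ribonuclease III fold whose human counterpart is mutated in a mitochondrial cardiomyopathy. It was at 28.4, 26.9 and 32.2 FPKM in DMSO and 23.8, 23.7 and 24.9 FPKM in haloperidol, with the treated libraries tightly grouped below the controls. The log2 fold change was -0.26 (SE 0.07, limma adjusted p = 0.0312). Mrps25 (chromosome 6, 92169525 to 92184033, minus strand) encodes mS25, a small-subunit protein added in mitochondria. It was the lowest of the 8 in level, at 7.35, 6.25 and 7.08 FPKM in DMSO and 4.83, 5.41 and 5.96 FPKM in haloperidol, again without overlap. The log2 fold change was -0.30 (SE 0.10, limma adjusted p = 0.0498). Its value is uncertain because 69.8% of its exon bases also lie in exons of other genes, and these libraries keep no strand. The largest overlap is with Nr2c2 on the opposite strand. Nr2c2 itself averaged 5.28 ± 0.822 FPKM under DMSO and 5.22 ± 0.544 FPKM under haloperidol (SD, n = 3).

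Leaving out a single library ended each of these 4 calls, with the adjusted p from limma rising to at most 0.114 for Mrpl20, 0.128 for Mrpl27, 0.0857 for Mrpl44 and 0.144 for Mrps25. For Mrpl20 this held for any of the 6 libraries, and for Mrpl27 for any but DMSO replicate 2. The call of Mrpl44 was lost without DMSO replicate 1 or 3 or haloperidol replicate 1 or 2, and that of Mrps25 without any library but haloperidol replicate 3. Over all 16 other fits, Mrpl44 kept its call in 10, Mrpl27 and Mrps25 in 6 each and Mrpl20 in 5. The direction did not change in any of these fits.

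**Figure D2:**
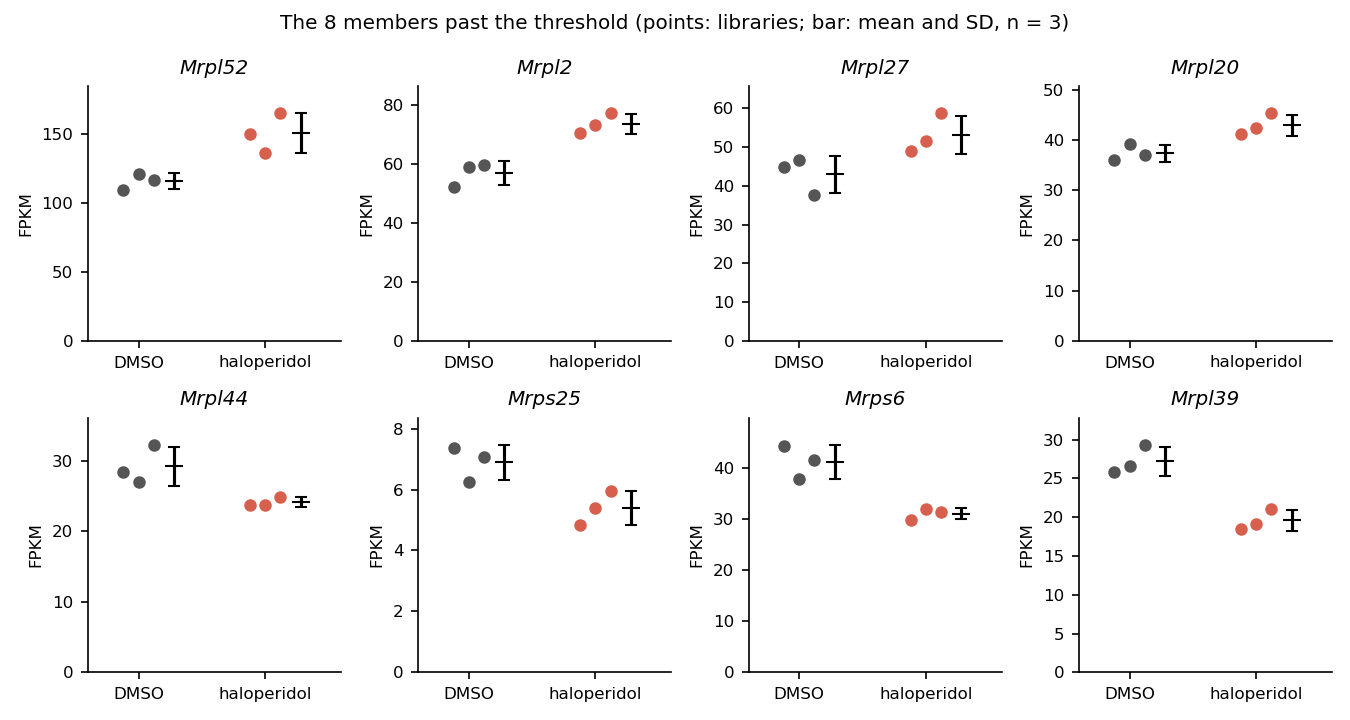
FPKM (vertical axis, from 0) in each library for the 8 members past the test, with DMSO in grey and haloperidol in red, and bars giving the mean and SD of 3 libraries. In all 8 panels the groups do not overlap, from Mrpl52 at 109.7 to 165 FPKM to Mrps25 at 4.83 to 7.35 FPKM.

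Large against small subunit, 4 of 46 tested large-subunit genes rose (8.70%, beside 11.5% of all genes) and 2 fell (4.35%, beside 13%), with a median log2 fold change of 0.02. Of the 29 small-subunit genes 0 rose by limma's test and 2 fell (6.90%), with a median of 0.03. At an unadjusted p under 0.05, 3 small-subunit genes were higher (Mrps9, Mrps16 and Mrps34, listed after their values were seen). At that level 4 were lower, the called Mrps6 and Mrps25 among them. Over both subunits, 20 of the 75 tested members were under 0.05. The share of all genes at this unadjusted level is not given here, so these counts, and those for other sets below, have no background. Limma-voom on recovered reads called 0 small-subunit genes higher and 2 lower, beside 29.0% of all genes called in either direction. The value of Mrps34 is uncertain, since 77.8% of its exon bases lie in exons of other genes. The largest of these overlaps is with Mapk8ip3 on the opposite strand. Groups separated upward in 11 large-subunit genes (23.9%) and 4 small-subunit genes (13.8%), beside 21% of all genes. They separated downward in 6 (13.0%) and 4 (13.8%), beside 22.1% of all genes. Members are not replicates, so the difference between the subunits was described and not tested. When library levels are scaled by the upper quartile, 8 members rose and 3 fell in place of 4 and 4, and the small subunit then had 2 higher and 1 lower.

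Within each library the large subunit stood above the small one by nearly the same amount. The mean log2(FPKM + 1) level of large-subunit members exceeded that of small-subunit members by 0.27, 0.31 and 0.27 in DMSO and by 0.31, 0.285 and 0.30 in haloperidol, and these ranges overlap. The median level of large-subunit members was 29.3, 29.7 and 32.2 FPKM in DMSO and 31.2, 29.5 and 32.9 FPKM in haloperidol. For small-subunit members it was 26.2, 26.6 and 27.2 FPKM in DMSO and 26.2, 24.2 and 26.2 FPKM in haloperidol. All members together took 0.441%, 0.444% and 0.457% of the reads in DMSO and 0.440%, 0.453% and 0.472% in haloperidol, also with overlap.

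Some symbols do not follow the subunit in which the protein sits. Mammals have 3 proteins of the bS18 family, of which Mrps18a is built into the large subunit and Mrps18b and Mrps18c into the small one. Mrps30 also belongs to the large subunit, and Mrps36 is now known as a part of the 2-oxoglutarate dehydrogenase complex. Assigned by structure, 4 of 48 large-subunit genes rose (8.33%) and 2 fell (4.17%), beside 11.5% and 13% of all genes. Of 26 small-subunit genes 2 fell (7.69%) and 0 rose by limma's test (3 higher at an unadjusted p under 0.05, 0 by limma-voom). The excess of the large over the small subunit was then 0.25, 0.27 and 0.24 in DMSO and 0.28, 0.24 and 0.27 in haloperidol.

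Mrps18a was at 21.03, 19.2 and 18.8 FPKM in DMSO and 17.2, 17.2 and 18.04 FPKM in haloperidol, without overlap, but missed the threshold (log2 fold change -0.16, SE 0.06, limma adjusted p = 0.102). Mrps18b, which shares 30.5% of its exon bases with other genes, was at 9.60 ± 1.76 and 10.1 ± 1.178 FPKM (SD, n = 3). Mrps18c was at 51.6 ± 5.77 and 56.9 ± 2.47 FPKM (SD, n = 3), also with overlapping libraries. Mrps30 was at 38.3 ± 3.37 and 38.4 ± 4.15 FPKM (SD, n = 3), and the 95% interval of its log2 fold change ran from -0.20 to 0.20. Mrps36 was at 12.5 ± 0.920 and 12.9 ± 2.17 FPKM (SD, n = 3). By limma's test 0 of these 5 passed, by limma-voom 0, and at an unadjusted p under 0.05 only Mrps18a did.

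The proteins of the mitoribosome are built in at a single copy each, with few exceptions. In FPKM, the highest and lowest tested members differed 35.4-fold. This ranking depends on the gene length by which reads are divided. Mrps10 held 492 to 687 reads per library over 8079 bases, and Mrps28 held 567 to 703 reads over 783 bases. The part of the counted length in these levels was not tested. Mrpl42, a mitochondria-specific protein of the large subunit, was the highest at 212, 200.3 and 203 FPKM in DMSO and 197, 201 and 212 FPKM in haloperidol. Its log2 fold change was -0.01, with a 95% interval from -0.12 to 0.10. Mrpl52 followed with a mean of 133 FPKM over the 6 libraries. The highest small-subunit members were Mrps28 (bS1m) at 91.0 FPKM and Mrps16 (bS16m) at 88.0 FPKM, which did not differ beyond their spread between libraries. Mrps28 ranged from 80.3 to 100.8 FPKM and Mrps16 from 78.8 to 96.1 FPKM over the 6 libraries. Mrps16 averaged 83.1 ± 4.65 FPKM under DMSO and 92.9 ± 3.13 FPKM under haloperidol (SD, n = 3) without overlap, and missed the threshold (limma adjusted p = 0.0689).

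At the low end, Mrpl47, a protein by the exit tunnel, averaged 5.93 ± 0.323 FPKM under DMSO and 5.61 ± 0.425 FPKM under haloperidol (SD, n = 3). In the small subunit, Mrps25 had a mean of 6.15 FPKM over the 6 libraries and Mrps10 (uS10m) of 8.30 FPKM. Mrps10 averaged 8.17 ± 1.30 FPKM under DMSO and 8.43 ± 0.0918 FPKM under haloperidol (SD, n = 3). Mrpl53 was the single member below the filter, at 0.603 to 0.791 FPKM and 4 to 5 reads per library, and 88.0% of its exon bases are shared with other genes. How the authors counted reads in shared bases is not given in the sources used here. Of all 76 members, 44 shared no exon base with another gene and 7 shared over 25%. Pseudogene rows exist for 3 members, and reads could be split with them. Mrpl23-ps1 ranged from 5.73 to 11.0 FPKM and Mrps36-ps1 from 0.930 to 2.33 FPKM, while Mrpl48-ps did not exceed 0.353 FPKM and Mrps36-ps2 was at 0 in all libraries. The values of Mrpl23, Mrpl48 and Mrps36 are uncertain to that extent.

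By position in the ribosome, 0 of 6 tested proteins around the peptide exit tunnel passed limma's test (1 higher at an unadjusted p under 0.05 and 1 by limma-voom), with a median log2 fold change of -0.06. In the central protuberance, which touches the small subunit, Mrpl27 alone of 6 passed, with a median of 0.00. In the stalks that bind translation factors and move transfer RNA, 0 of 5 tested passed limma's test (1 higher at an unadjusted p under 0.05 and 0 by limma-voom), with a median of 0.12. Of 48 members with a bacterial homologue 3 rose (6.25%) and 1 fell (2.08%), and of 27 tested members without one 1 rose (3.70%) and 3 fell (11.1%), beside 11.5% and 13% of all genes. The median log2 fold changes were 0.05 and -0.01. The libraries separated upward in 22.9% and downward in 4.17% of the former, and upward in 14.8% and downward in 29.6% of the latter, beside 21% and 22.1% of all genes. These are descriptions of this list and carry no test.

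Members are short genes, with a median length of 1708 bases against 3327.5 over all genes tested. Among the 2285 shortest genes tested the median log2 fold change was 0.05, and the 35 members among them also had a median of 0.05. Among the next 2289 by length it was -0.02 over all genes and 0.01 over 20 members. Among the remaining genes, in groups of rising length, it was -0.01, 0.00 and -0.002 over all genes. The members in those groups had medians of -0.07 (9 members), 0.09 (5) and 0.01 (6). The part of length in the members' changes was not tested.

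The lists of genes that work with the mitoribosome are read beside the 24.5% of all genes that passed the test. Of 7 further mitoribosome proteins under other symbols, Mrp63 (mL63) rose from 23.9 ± 1.11 to 28.5 ± 2.33 FPKM (SD, n = 3, limma adjusted p = 0.0387) and the other 6 did not pass the test. Among 27 tested genes for mitoribosome assembly and RNA modification, 5 rose and 3 fell (29.6% in all, near that share), with a median log2 fold change of 0.06. Malsu1, which holds the maturing large subunit apart from the small one, rose from 8.13 ± 0.872 to 10.9 ± 0.737 FPKM (SD, n = 3, limma adjusted p = 0.0171). Fastkd2, which binds the large-subunit RNA, fell from 9.98 ± 0.871 to 6.87 ± 0.899 FPKM (SD, n = 3, limma adjusted p = 0.0104). Mettl17, which acts on the small subunit, fell from 6.77 ± 0.614 to 5.01 ± 0.284 FPKM (SD, n = 3, limma adjusted p = 0.0188).

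Of 16 tested translation factors 1 rose and 1 fell (12.5% in all). Guf1, an elongation factor related to bacterial LepA, rose from 4.72 ± 0.477 to 6.26 ± 0.338 FPKM (SD, n = 3, limma adjusted p = 0.0250). Mrrf, the factor that recycles ribosomes after termination, fell from 12.8 ± 0.573 to 10.2 ± 0.441 FPKM (SD, n = 3, limma adjusted p = 0.0138). Of 19 tested tRNA synthetases 4 rose and 1 fell (26.3% in all). Iars2, the mitochondrial isoleucyl enzyme, rose from 10.9 ± 0.848 to 15.0 ± 0.696 FPKM (SD, n = 3, limma adjusted p = 0.00498), whereas Gars and Kars, which also rose, serve the cytosol as well. Of 26 import genes 4 rose and 3 fell (26.9% in all). Tomm5, part of the outer-membrane channel, had a log2 fold change of 0.27 (limma adjusted p = 0.0111), and Timm8b, a chaperone between the membranes, of -0.29 (limma adjusted p = 0.00526).

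Of the products of the mitochondrial genome, both ribosomal RNAs varied widely between libraries, with mt-Rnr1 at 59.9 ± 11.5 and 62.8 ± 9.30 FPKM and mt-Rnr2 at 603.5 ± 103.5 and 609 ± 75 FPKM (SD, n = 3 per group). By limma 0 of the 2 passed, also by limma-voom and at an unadjusted p under 0.05. Of 12 tested protein-coding mitochondrial genes, 11 had a log2 fold change above 0, with a median of 0.20. Over all genes 5769 of 11436 were above 0. The groups separated upward in 1 of the 12 (8.33%), beside 21% of all genes. The summed levels overlapped, at 8252 to 10180 FPKM in DMSO and 9529 to 12170 FPKM in haloperidol. Only mt-Nd1, a subunit of complex I, passed the test. It rose from 465 ± 34.4 to 641 ± 59.0 FPKM (SD, n = 3, limma adjusted p = 0.00465). Among 84 tested genes with symbols of cytosolic ribosomal proteins, a list taken after the data were seen, 43 rose (51.2%) and 1 fell (1.19%). The symbol pattern also admits ribosomal-protein-like genes and leaves out Fau. Of all genes 11.5% rose and 13% fell. The median log2 fold change of the cytosolic list was 0.21, against 0.02 for mitochondrial ribosomal protein genes. The difference between these lists was not tested.

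**Figure D3:**
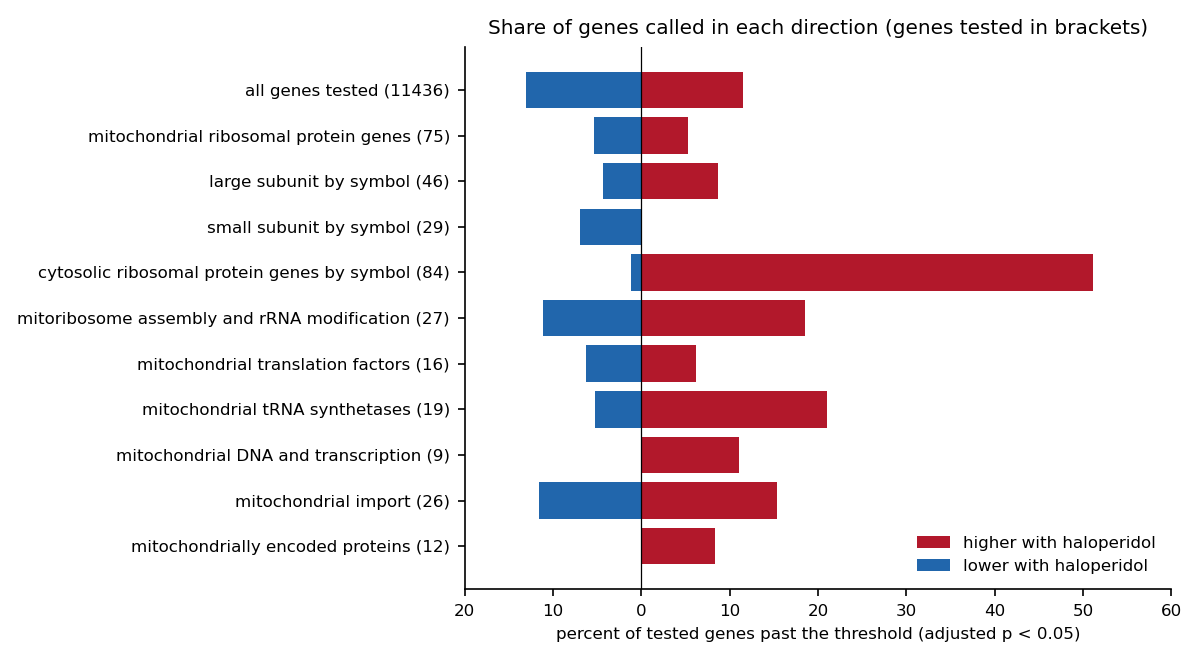
Percent of the tested genes of each list past the test (adjusted p under 0.05), higher with haloperidol to the right in red and lower to the left in blue, with the number tested in brackets. Mitochondrial ribosomal protein genes reach 5.33% each way, all genes 11.5% and 13%, and cytosolic ribosomal protein genes have 43 of 84 higher.

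Promoters of 67 members were found in RefSeq, 73 promoters in all because some genes have several. The motifs searched on both strands were those of NRF1 (GCGCANGCG), of ETS factors including GABPA (CCGGAAG), of YY1 (AAGATGGCG) and of ZNF143 (ACTACAATT), and the E-box (CACGTG). The ETS motif was in 32.9% of members' promoters, 18.8% of those of all genes tested and 8.86% of all 32851 promoters. The NRF1 motif was in 20.5% of members' promoters, 13.9% of tested genes' and 6.25% of all. For YY1 the shares were 11.0%, 3.28% and 1.4%, and for the E-box 9.59%, 10.3% and 7.15%. ZNF143 had no match among members and 0.39% among all promoters. A match describes letters and not a bound site.

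Split by these matches, the 5 members with an E-box included 2 that rose (Mrpl2 and Mrpl20), and had a median log2 fold change of 0.14. The 61 without one included 2 that rose and 4 that fell, with a median of 0.02. The 15 with an NRF1 motif included 2 that fell (Mrpl39 and Mrpl44), with a median of 0.07. Among the 51 without it 4 rose and 2 fell, with a median of 0.004. The 23 with an ETS motif included 2 that rose (Mrpl27 and Mrpl52), with a median of 0.05. Among the 43 without it 2 rose and 4 fell, with a median of 0.01. Of all genes tested 11.5% rose and 13% fell. Of the 8 with a YY1 motif 0 passed limma's test, 1 was lower at an unadjusted p under 0.05 and 0 were called by limma-voom. Of 12 tested transcription factors of nuclear genes for mitochondria 2 rose and 3 fell (41.7% in all), beside 24.5% of all genes. Myc, an E-box factor, rose from 102.9 ± 3.49 to 143 ± 2.87 FPKM (SD, n = 3, limma adjusted p = 3.80e-04), and Mycn fell from 5.85 ± 0.568 to 3.61 ± 0.388 FPKM (SD, n = 3, limma adjusted p = 0.00512). Gabpb1, the partner subunit of GABPA, fell from 27.1 ± 0.956 to 22.0 ± 0.783 FPKM (SD, n = 3, limma adjusted p = 0.00782). Nrf1, nuclear respiratory factor 1, fell from 8.47 ± 0.310 to 7.02 ± 0.211 FPKM (SD, n = 3, limma adjusted p = 0.0381). The remaining factor that rose, E2f1, is a regulator of the cell cycle. Whether any of these factors acts on the members' promoters was not tested.

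Mitochondrial ribosomal protein genes often start close to the start of another gene on the opposite strand. With a start on the opposite strand within 1000 bases, 32 of 75 tested members (42.7%) had a protein-coding neighbour. The same held for 1758 of the 9868 tested genes found by symbol among protein-coding genes of GENCODE (17.8%). The rule did not ask for direction, so pairs that overlap at their starts count beside pairs transcribed away from each other. Of these neighbours 28 were tested, 1 of them (Twnk, next to Mrpl43) under its older symbol Peo1, and 4 (14.3%) passed, beside 24.5% of all genes. These pairs were chosen for naming after their values were seen. Klc4, a kinesin light chain whose start lies 207 bases from that of Mrpl2, fell from 20.6 ± 1.54 to 16.6 ± 1.36 FPKM (SD, n = 3, limma adjusted p = 0.0286) while Mrpl2 rose. Fau, 59 bases from Mrpl49, encodes a cytosolic ribosomal protein fused to a ubiquitin-like one. It rose from 177.6 ± 11.8 to 214 ± 8.21 FPKM (SD, n = 3, limma adjusted p = 0.0131), with Mrpl49 at 20.9 ± 0.167 and 19.6 ± 0.243 FPKM.

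Ncapd2, a condensin subunit 100 bases from Mrpl51, had a log2 fold change of 0.36 (limma adjusted p = 0.00914), and Mrpl51 one of -0.07. Mitd1, 66 bases from Mrpl30 and known for a role in the last step of cell division, had one of 0.48 (limma adjusted p = 0.00840), and Mrpl30 one of 0.15. Neither Mrpl51 nor Mrpl30 passed the test. Conversely, Eme1 beside Mrpl27 (log2 fold change -0.15) and Wdfy1 beside Mrpl44 (0.00) did not pass. In 1 case both partners were members. Mrpl46 and Mrps11, on chromosome 7 with starts 412 bases apart and overlapping exons, had log2 fold changes of -0.15 and 0.04. This pair is not transcribed apart, since Mrps11 starts inside Mrpl46.

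**Figure D4:**
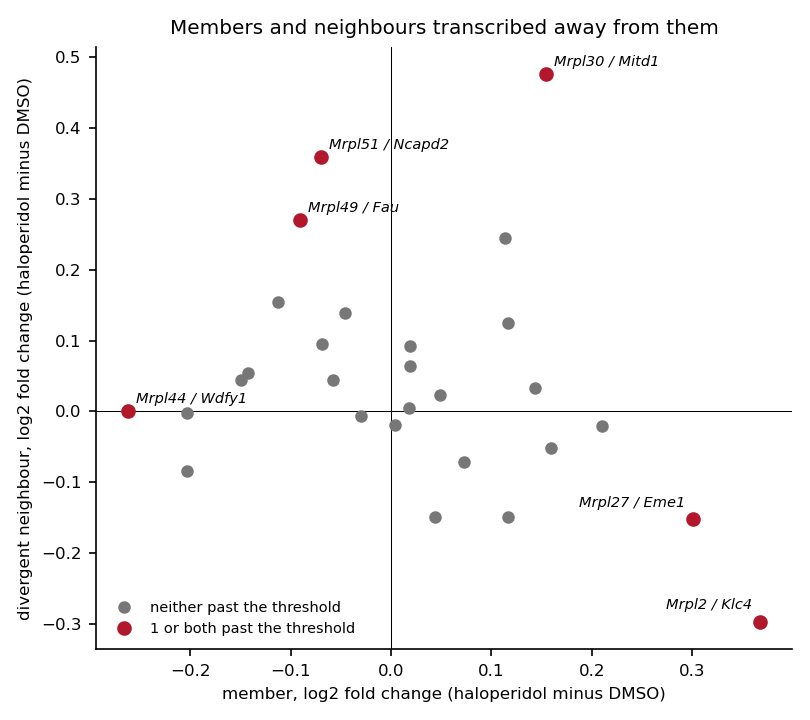
Log2 fold change (haloperidol minus DMSO, log2(FPKM + 1) scale) of each member (horizontal axis) and of its tested neighbour on the opposite strand (vertical axis), 28 points with the pair of Mrpl46 and Mrps11 drawn both ways. The plot calls these neighbours divergent, although some pairs overlap at their starts. Red points have 1 or both genes past the test, among them Mrpl2 at 0.37 with Klc4 at -0.30.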

How the data were processed

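RNA from 6 sorted LSK samples was made into cDNA and libraries with SMART-Seq v4 and Nextera XT kits, per the labels' protocols. Per the submitters' processing notes, the tools were TopHat2 (version 2.1.1), bcl2fastq (2.19.1.403), DESeq2 (1.18.1) and HTSeq (0.6.1), with the build mm10. Which annotation was counted, and how strand and shared bases were handled, is not given in the sources used here. FPKM were deposited by the authors for 38926 genes, 1 column per library, with 0 columns of other samples. Whole reads could be recovered for 100.0% of the 20633 genes above 0 (tolerance 0.001 reads). The smallest gene length that gave whole reads was taken, so reads that share a factor in all 6 libraries would be understated. The recovered length equalled the GENCODE exon bases for 38 members. For Mrpl19 it was 2725 bases against 5450, so its reads may be too low. The relative scale of the libraries equalled median-of-ratios size factors of these reads and differed from library totals by up to 0.770%, so the FPKM hold no absolute amount of RNA per cell. Pairs of libraries differed by more than sampling noise, with a chi-square per degree of freedom between 2.8 and 4.49 within groups and between 12.1 and 17.0 across them.

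The 11436 genes with a mean of at least 1 FPKM were compared between groups as log2(FPKM + 1) values by limma (version 3.58.1, R 4.3.3; trend, two-sided, no covariate, Benjamini-Hochberg adjustment over all genes, threshold 0.05), after the procedure was tested on simulated data. On simulated reads with 3 libraries per group, it recovered 28.4% of 1.25-fold changes, 68.7% of 1.5-fold changes and 93.9% of 2-fold changes. These changes were put into genes of all levels and not into the members as such. Fold changes on the log2(FPKM + 1) scale understate the change of low genes. Replicate numbers were not treated as pairs, since same-numbered libraries' deviations correlated by no more than 0.055. Alternatives covered the pseudocount (0.1), filter, scaling, prior variance, sample weights, a replicate block, leaving out each library, subunit by structure, added symbols and limma-voom on recovered reads.

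Positions, exons and neighbours are from GENCODE M21 on GRCm38, promoters from RefSeq. Members and lists were chosen with earlier results of these data known, and the cytosolic ribosomal list was added afterwards. Genes named are the members past the test whose groups do not overlap (up to 8 in each direction), the 2 highest and 2 lowest of each subunit, Mrps18a, Mrps18b, Mrps18c, Mrps30 and Mrps36, members below the filter, and up to 4 genes of each list with the smallest p. Other names were chosen after their values were seen.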

Additional observations from a re-analysis of the deposited data

How the results depend on the processing

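Counts of members were small, so single genes near the threshold moved them. The 8 called members kept their direction in every fit. Of the 67 members not called, 19 changed sign in at least 1 fit, each with a log2 fold change of at most 0.07 in size in the reported fit, and the members' median of 0.02 became -0.002 when libraries were rescaled to a common sum. Against 4 members higher and 4 lower, both the fit without a filter on low values and the fit without a trend called 2 higher and 2 lower (large subunit 2 higher and 1 lower, small subunit 1 lower). Upper quartile scaling called 8 higher, with 2 small-subunit genes higher and 1 lower. Quantile normalization called 1 small-subunit gene higher and 1 lower. Leaving out 1 library at a time gave 2 to 3 members higher and 2 to 4 lower. The large subunit then had 2 to 3 higher and 1 to 2 lower, and the small subunit 0 to 1 higher and 1 to 2 lower. The cause of these moves was not tested. With the replicate block, 4 members were higher and 3 lower, with 1 small-subunit gene in each direction. Same-numbered libraries did not all correlate best with each other, so the block shows no pairing. Limma-voom on recovered reads called 11 members, and 1601 genes higher and 1713 lower in all, against 1320 and 1487. The count of all genes higher was more than 1.5 times smaller without a filter (848), without DMSO replicate 2 (815) and without haloperidol replicate 1 (869). Over the 16 other fits, 7 further members passed in at least 1. Scaling moved the median of all genes to between -0.02 and 0.03. Depth was at least 118 reads per library for every tested member, and Mrpl53, at 4 to 5 reads, could not be judged.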
